A study of Oryctolagus cuniculus with 4 samples.

Results

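The genes described here encode cell-surface receptors for transmitters, purines, prostanoids, endothelins, angiotensin and related ligands in rabbit bladder mucosa. They were chosen by symbol alone. All rows whose symbol belongs to the adrenergic, muscarinic, nicotinic, P2X, P2Y, adenosine, serotonin, tachykinin, endothelin, prostanoid, angiotensin, bradykinin or histamine receptor families were taken, and these were 51 of the 18475 genes listed, of which 50 are described. No bradykinin receptor was among them, so 12 families were represented. Droplet-based single-cell RNA sequencing with a 3′ kit was performed on mucosa of 4 adult New Zealand rabbits, with 1 library and 1 sequencing lane for each rabbit. In the 2 injured rabbits (Injury_1 and Injury_2) a piece of mucosa had been cut out of the bladder wall, and the tissue was taken on day 10, when new urothelium had just closed the wound. The 2 normal rabbits (Normal_1 and Normal_2) gave mucosa of an unwounded bladder. The wound was surgical, the tissue was digested with collagenase before capture, and 10 days was the only time sampled.

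Most of these receptors are coupled to G proteins. Those coupled to Gs, such as ADORA2B, PTGER2 and PTGER4, raise cyclic AMP, those coupled to Gq, such as EDNRA and AGTR1, release calcium from internal stores, and those coupled to Gi lower cyclic AMP. The nicotinic and P2X receptors are instead ion channels that are opened by acetylcholine and ATP. In the bladder, acetylcholine and ATP are known for their control of muscle contraction and sensation, while endothelin, angiotensin II, adenosine and prostaglandin E2 act on vessels, stroma and immune cells.

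The cells kept numbered between 4308 and 6027 per normal rabbit and between 5529 and 6081 per injured rabbit, 21945 in all, with 24798544 to 44542420 unique molecular identifiers (UMIs, each a captured RNA molecule) per library. Normal_1 was the shallowest library, with a median of 4813.5 UMIs per cell against 6755 to 7186 in the others. Pairs of libraries shared between 8 and 13 barcodes, at most 0.223% of the smaller library. The tissue was labelled urothelium, but the cells were mostly stromal and vascular. Clusters were named from markers, and they comprised 8884 fibroblast-like, 5246 endothelial-like, 1533 epithelial-like, 1427 macrophage-like, 1392 pericyte-like, 1183 T cell-like and 762 smooth muscle-like cells. Smaller classes were 221 B cell-like, 213 neutrophil-like, 117 glial-like, 104 mast cell-like and 89 lymphatic endothelial-like cells, and 774 cells were left unnamed. The receptor genes had no part in the clustering. Each rabbit counts as 1 replicate, so n is 2 per group and p-values rest on the spread between those animals. Levels are CPM, which is a count divided by the UMI total of its class in that sample and multiplied by 1000000. Samples with fewer than 20 cells of a class were left out of its mean. A 3′ count is not scaled to gene length, and levels are therefore compared between cells and samples and not between genes. Within a class, fewer cells carrying a transcript and less RNA per cell cannot be told apart in such sums.

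Of the 50 genes, 42 had at least 1 UMI in the cells kept and 26 had at least 20. The 8 genes with 0 UMIs were P2RY4, CHRNA2, HTR1E, HTR1F, HTR2C, HTR3A, HTR5A and TACR2, and a count of 0 allows up to 3 UMIs. The 50 genes together gave 48861 UMIs. Their summed level was 402 CPM in Injury_1, 331 CPM in Injury_2, 294 CPM in Normal_1 and 208 CPM in Normal_2, so both injured rabbits were higher. PTGER4 alone gave 6678 of 17892, 4244 of 14457, 1381 of 7289 and 1254 of 9223 of these UMIs in that order. Class shares also differed, with 10.6% and 9.62% macrophage-like cells in the injured against 3.06% and 1.97% in the normal rabbits. Epithelial-like shares were 9.32% and 6.40% against 10.2% and 2.84%. The part of PTGER4 and of these shares in the sum was not tested. The prostanoid family gave 15399 UMIs from 4 genes and the endothelin family 12783 from 2 genes, and the adenosine, angiotensin and P2Y families gave 9835, 4011 and 3339. At the other end were 80 UMIs for 4 adrenergic genes, 59 for 4 muscarinic genes, 68 for 2 histamine genes, 227 for 11 serotonin genes and 11 for 3 tachykinin genes. A few genes gave most of the UMIs. PTGER4 had 13557 UMIs, EDNRB 11275, ADORA2B 9458 and AGTR1 4007.

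**Figure D1:**
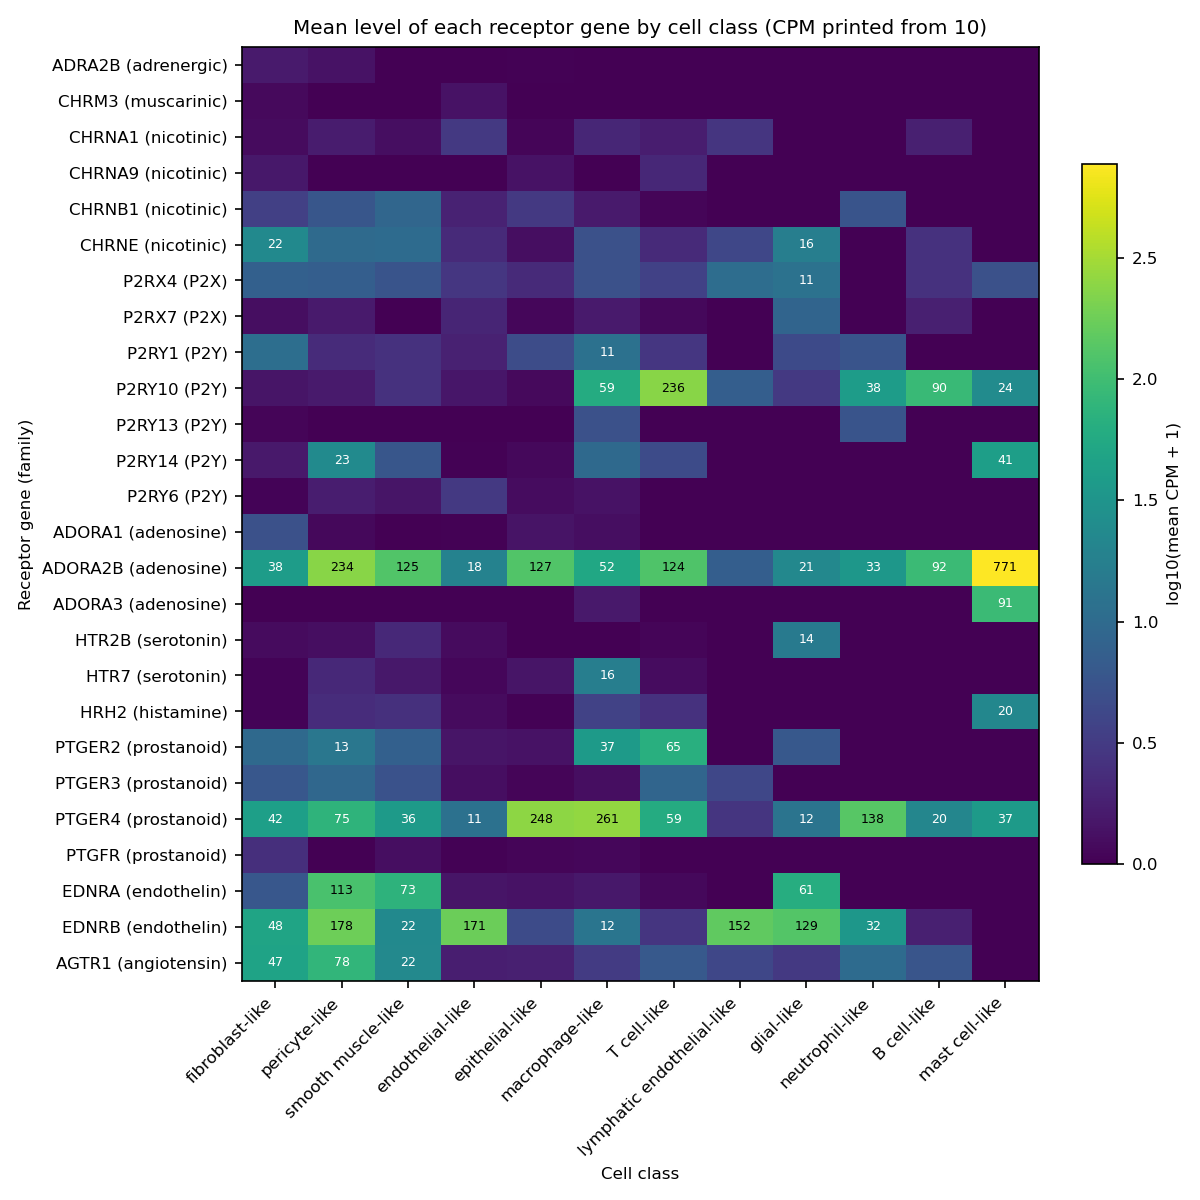
Mean level of the 26 receptor genes with at least 20 UMIs (rows) in the 12 named cell classes (columns), as log10(mean CPM + 1) over the samples with at least 20 cells of the class, with means of 10 CPM or more printed. P2RY10 has its highest mean in T cell-like cells, EDNRA in pericyte-like and ADORA2B in mast cell-like cells, at 236, 113 and 771 CPM.

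Some receptor genes had 1 class in which they were highest in every rabbit. Among the 7 large classes, 10 of the 26 genes with at least 20 UMIs had the same highest class in all 4 rabbits, which was 38.5% against 32.2% of the 11172 genes measured at that depth. The fibroblast-like class was highest for ADORA1, CHRNE and PTGFR, the pericyte-like class for P2RY14, EDNRA and ADORA2B, and the endothelial-like class for P2RY6. The macrophage-like class was highest for P2RY13 and HTR7, and the T cell-like class for P2RY10. For 9 of the 10, all but PTGFR, the lowest sample of the highest class was above the highest sample of the next class, as it was for 59% of the 3602 genes with the same highest class in all 4 rabbits. These levels are a description, since the classes were built from the same cells.

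The adrenergic genes described here were rare. ADRA2B, an alpha-2 receptor, had 46 UMIs in fibroblast-like cells, 37 of them in Normal_2, and the alpha-1 receptors ADRA1A, ADRA1B and ADRA1D had 10, 11 and 9 UMIs over all cells.

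ADORA2B, the low-affinity adenosine receptor, was high in contractile, epithelial, T cell-like and mast cells. In pericyte-like cells it measured 237, 220, 233 and 247 CPM in Injury_1, Injury_2, Normal_1 and Normal_2, a mean of 234 ± 11.0 CPM (SD, n = 4), and the groups overlapped. Epithelial-like cells followed at 127 ± 15.4 CPM and smooth muscle-like cells at 125 ± 36.4 CPM, and these classes did not differ beyond their spread. T cell-like cells had 83.5, 110, 226 and 76.7 CPM in the same order of rabbits, a range that held both means. The median depth was 5842 UMIs in endothelial-like, 13730 in epithelial-like and 7228 in fibroblast-like cells, and 4388, 4740, 7015 and 3403 in pericyte-like, smooth muscle-like, macrophage-like and T cell-like cells, and shares of cells with a UMI were therefore computed after thinning of every cell to 1000 UMIs. The mast cell-like class had 880 and 663 CPM in the injured rabbits, where 53.2% of thinned cells had an ADORA2B UMI, against 1.75% of endothelial-like cells (72.0% and 8.63% unthinned). The median depth of mast cell-like cells was 1416 UMIs, and 26 of 104 had fewer than 1000 and were left out of the thinned share. The normal rabbits had only 7 and 18 mast cell-like cells, with 31 and 53 ADORA2B UMIs. ADORA3, which is known from mast cells, was nearly confined to that class, with 21 UMIs there and 2 in macrophage-like cells. ADORA1, the Gi-coupled receptor, was a low fibroblast-like gene at 2.54, 5.60, 1.73 and 6.84 CPM, with 331 of its 354 UMIs in that class.

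The endothelin receptors differed in their cells. EDNRA, which mediates constriction by endothelin-1 in mural cells, measured 106, 128, 98.7 and 120 CPM in pericyte-like cells, in the order Injury_1, Injury_2, Normal_1, Normal_2, with a mean of 113 ± 13.3 CPM (SD, n = 4). Smooth muscle-like cells had 73.2 ± 16.0 CPM and glial-like cells 61.2 ± 26.0 CPM (SD, n = 3), whereas fibroblast-like cells were between 4.02 and 8.06 CPM. After thinning, 11.2% of pericyte-like and 7.18% of smooth muscle-like cells had an EDNRA UMI against 0.0359% of endothelial-like cells (36.0%, 27.7% and 0.272% unthinned). EDNRB, which in endothelium promotes nitric oxide release and endothelin clearance, was shared by pericyte-like, endothelial-like and glial-like cells. It measured 251, 217, 132 and 114 CPM in pericyte-like cells and 108, 156, 239 and 182 CPM in endothelial-like cells, and the 2 classes overlapped. The order between them was not the same in all rabbits, since pericyte-like cells were higher in both injured rabbits and endothelial-like cells in both normal ones. Lymphatic endothelial-like cells had 152 ± 48.9 CPM (SD, n = 2) and glial-like cells 129 ± 37.5 CPM (SD, n = 3). Fibroblast-like cells had 47.6 ± 19.4 CPM (SD, n = 4), and smooth muscle-like cells only 8.75 to 47.0 CPM.

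AGTR1, the main receptor of angiotensin II, belonged to pericyte-like and fibroblast-like cells. Pericyte-like cells had 85.2 and 85.7 CPM in the injured rabbits and 70.3 and 70.0 CPM in the normal ones, and smooth muscle-like cells had 15.7 to 27.0 CPM. Fibroblast-like cells had 102 CPM in Injury_1 but 33.2 CPM in Injury_2, 29.4 CPM in Normal_1 and 23.7 CPM in Normal_2. That single library set the mean of 46.9 ± 36.6 CPM (SD, n = 4). AGTR2 had 4 UMIs, all in fibroblast-like cells of Injury_1.

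Among the prostanoid receptors, the 2 Gs-coupled receptors of prostaglandin E2 differed in their cells. PTGER4 (EP4) measured 356, 289, 232 and 168 CPM in macrophage-like cells of Injury_1, Injury_2, Normal_1 and Normal_2, and 442, 302, 141 and 106 CPM in epithelial-like cells. Epithelial-like cells were highest in both injured rabbits and macrophage-like cells in both normal ones. Thinned cells had a PTGER4 UMI in 21.2% of the epithelial-like, 20.8% of the macrophage-like and 1.09% of the endothelial-like class (69.9%, 54.3% and 4.75% unthinned). PTGER2 (EP2) had its highest mean in T cell-like cells, at 22.2, 15.8, 65.0 and 157 CPM, and macrophage-like cells followed at 20.3, 14.9, 58.2 and 53.4 CPM. In both classes the injured rabbits lay below the normal ones. PTGER3 (EP3), which is Gi-coupled, averaged 8.26 ± 1.48 CPM (SD, n = 4) in pericyte-like cells. PTGFR, the receptor of prostaglandin F2-alpha, had 105 of its 112 UMIs in fibroblast-like cells.

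P2RY10 and P2RY14 were found mainly in different cells. P2RY10, a relative of the P2Y receptors that responds to lysophosphatidylserine, measured 208, 252, 260 and 222 CPM in T cell-like cells of Injury_1, Injury_2, Normal_1 and Normal_2. Its mean there was 236 ± 24.7 CPM (SD, n = 4), against 89.6 ± 33.2 CPM (SD, n = 2) in B cell-like and 58.6 ± 20.5 CPM (SD, n = 4) in macrophage-like cells. After thinning, 21.0% of T cell-like cells had a P2RY10 UMI against 0.0122% of epithelial-like cells (51.7% and 0.221% unthinned). P2RY14, which binds UDP-glucose, was a pericyte-like gene at 19.0, 21.8, 30.6 and 20.2 CPM. P2RY13, an ADP receptor, had 40 UMIs in macrophage-like cells. P2RY1, another ADP receptor, was near equal in macrophage-like and fibroblast-like cells, at 10.9 ± 2.43 and 9.93 ± 2.61 CPM (SD, n = 4), and P2RY6, which binds UDP, was highest in endothelial-like cells at 1.41 to 2.54 CPM. Of the ATP-gated channels, P2RX4 averaged 6.76 ± 3.24 CPM (SD, n = 4) in fibroblast-like cells, P2RX7 had 69 UMIs, 33 of them in endothelial-like cells, and P2RX1, the channel of detrusor muscle, had 19 UMIs, 9 of them in smooth muscle-like cells. In the RefSeq annotation P2RY13 and P2RY14 lie within MED12L, and the strand setting of the counting was not given in the sources used here.

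The muscarinic genes had few UMIs. CHRM3, the muscarinic receptor that drives detrusor contraction, had 0 UMIs in smooth muscle-like cells of all 4 rabbits, 17 UMIs in endothelial-like cells of the normal rabbits and 15 in fibroblast-like cells of Injury_2. The tissue was mucosa, so this 0 does not describe the detrusor, and the RefSeq locus of CHRM3 overlaps other loci. CHRM2, CHRM4 and CHRM5 had 2, 13 and 11 UMIs. CHRNE, a nicotinic subunit, measured 25.7, 28.4, 15.9 and 19.1 CPM in fibroblast-like cells of Injury_1, Injury_2, Normal_1 and Normal_2. Its RefSeq locus overlaps C17H17orf107 and MINK1, so reads of these genes could be split. CHRNB1 averaged 7.92 ± 1.61 CPM in smooth muscle-like cells and CHRNA1 2.00 ± 1.24 CPM in endothelial-like cells (SD, n = 4). HTR7, a Gs-coupled serotonin receptor, measured 9.44, 10.5, 25.1 and 19.3 CPM in macrophage-like cells, where 125 of its 155 UMIs were found. HTR2B had 14.3 ± 4.94 CPM (SD, n = 3) in glial-like cells, on 6 UMIs. HRH2, the histamine receptor coupled to Gs, had 22 UMIs in macrophage-like and 7 in mast cell-like cells, and HRH4 had 6 UMIs, all in Injury_1, 5 of them in neutrophil-like cells and 1 in a T cell-like cell. TACR1 and TACR3, receptors of substance P and neurokinin B, had 7 and 4 UMIs.

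**Figure D2:**
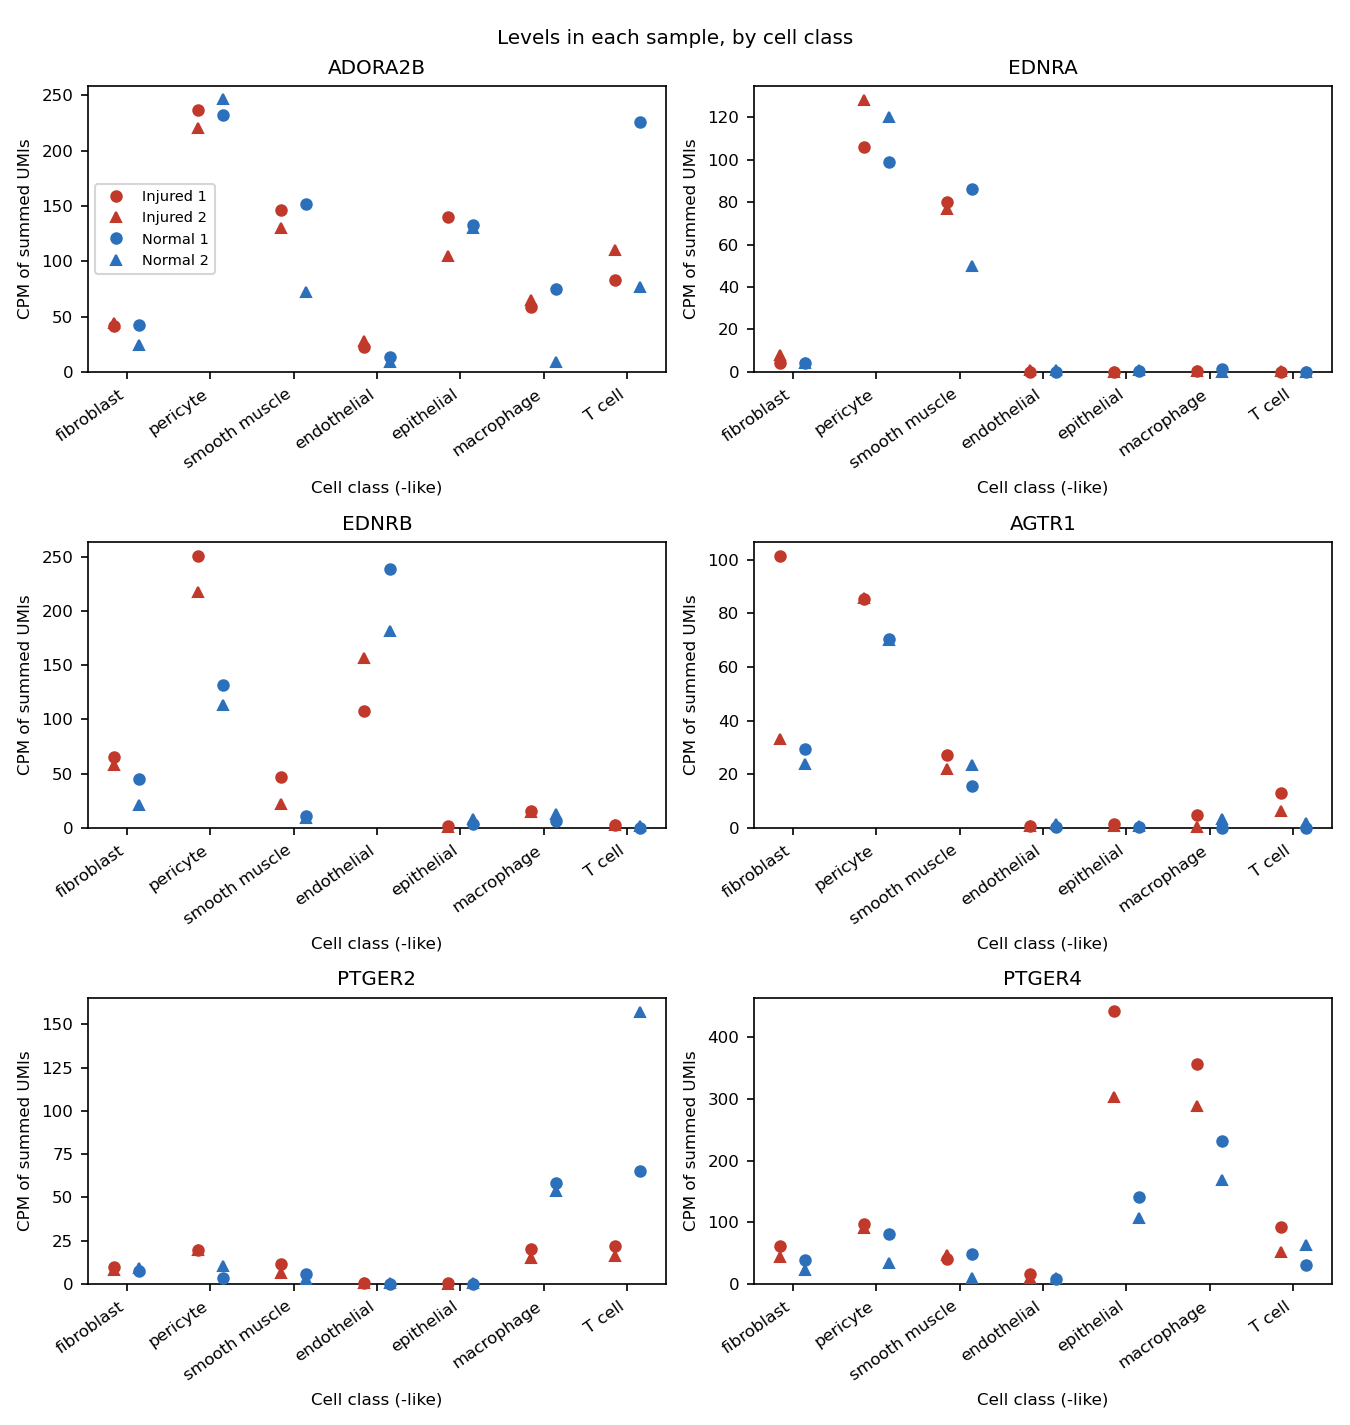
Level (CPM, axes from 0) of ADORA2B, EDNRA, EDNRB, AGTR1, PTGER2 and PTGER4 in each tested cell class, with 1 point per rabbit (red for injured, blue for normal, circle for replicate 1 and triangle for replicate 2). EDNRA lies between 98.7 and 128 CPM in pericyte-like cells of all 4 rabbits, whereas PTGER4 in epithelial-like cells is 442 and 302 CPM in the injured and 141 and 106 CPM in the normal rabbits.

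To ask whether receptor transcripts differ on day 10 after wounding, UMIs were summed per class and rabbit and tested with edgeR over all genes. There were 59 tests of a receptor gene in a class, covering 21 genes, and 0 passed an adjusted p of 0.05. An unadjusted p under 0.05 was reached in 21 of the 59 edgeR tests (35.6%), beside 11.5% of all edgeR tests of a gene in these classes. By class these were 9 of 17 receptor genes in fibroblast-like cells (10.9% of all genes), 2 of 10 in pericyte-like (9.69%), 1 of 6 in smooth muscle-like (5.02%), 2 of 6 in endothelial-like (6.66%), 2 of 5 in epithelial-like (20.4%), 3 of 10 in macrophage-like (12.6%) and 2 of 5 in T cell-like cells (14.6%). Some receptor genes were tested in several classes and count there more than once. DESeq2 called 3 receptor tests at an adjusted p of 0.05: 1 of 5 in epithelial-like cells beside 510 of 7046 genes, 1 of 10 in macrophage-like cells beside 54 of 5668, and 1 of 5 in T cell-like cells beside 84 of 4539. Calls by edgeR were few for all genes as well: 0% of genes in fibroblast-like, smooth muscle-like, endothelial-like and macrophage-like cells, 0.068% in pericyte-like, 0.0881% in T cell-like and 1.65% in epithelial-like cells. Both injured rabbits were above both normal ones in 22 tests and below them in 10, and the groups overlapped in 27. These counts are to be read beside all genes, of which 35.4% to 54.8% lay without overlap, depending on the class. By class, 16.2% to 39.3% of all genes were higher and 13.5% to 27.8% lower in both injured rabbits. With 2 rabbits per group, simulated 4-fold changes were recovered in 42.1% to 84.4% of genes and 2-fold changes in 1.06% to 14.7%, so the absence of a call does not show that a gene was unchanged. In each of the 7 classes the median mitochondrial share was lower in both injured than in both normal rabbits, and at a mitochondrial limit of 10% edgeR again called 0 receptor genes.

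**Figure D3:**
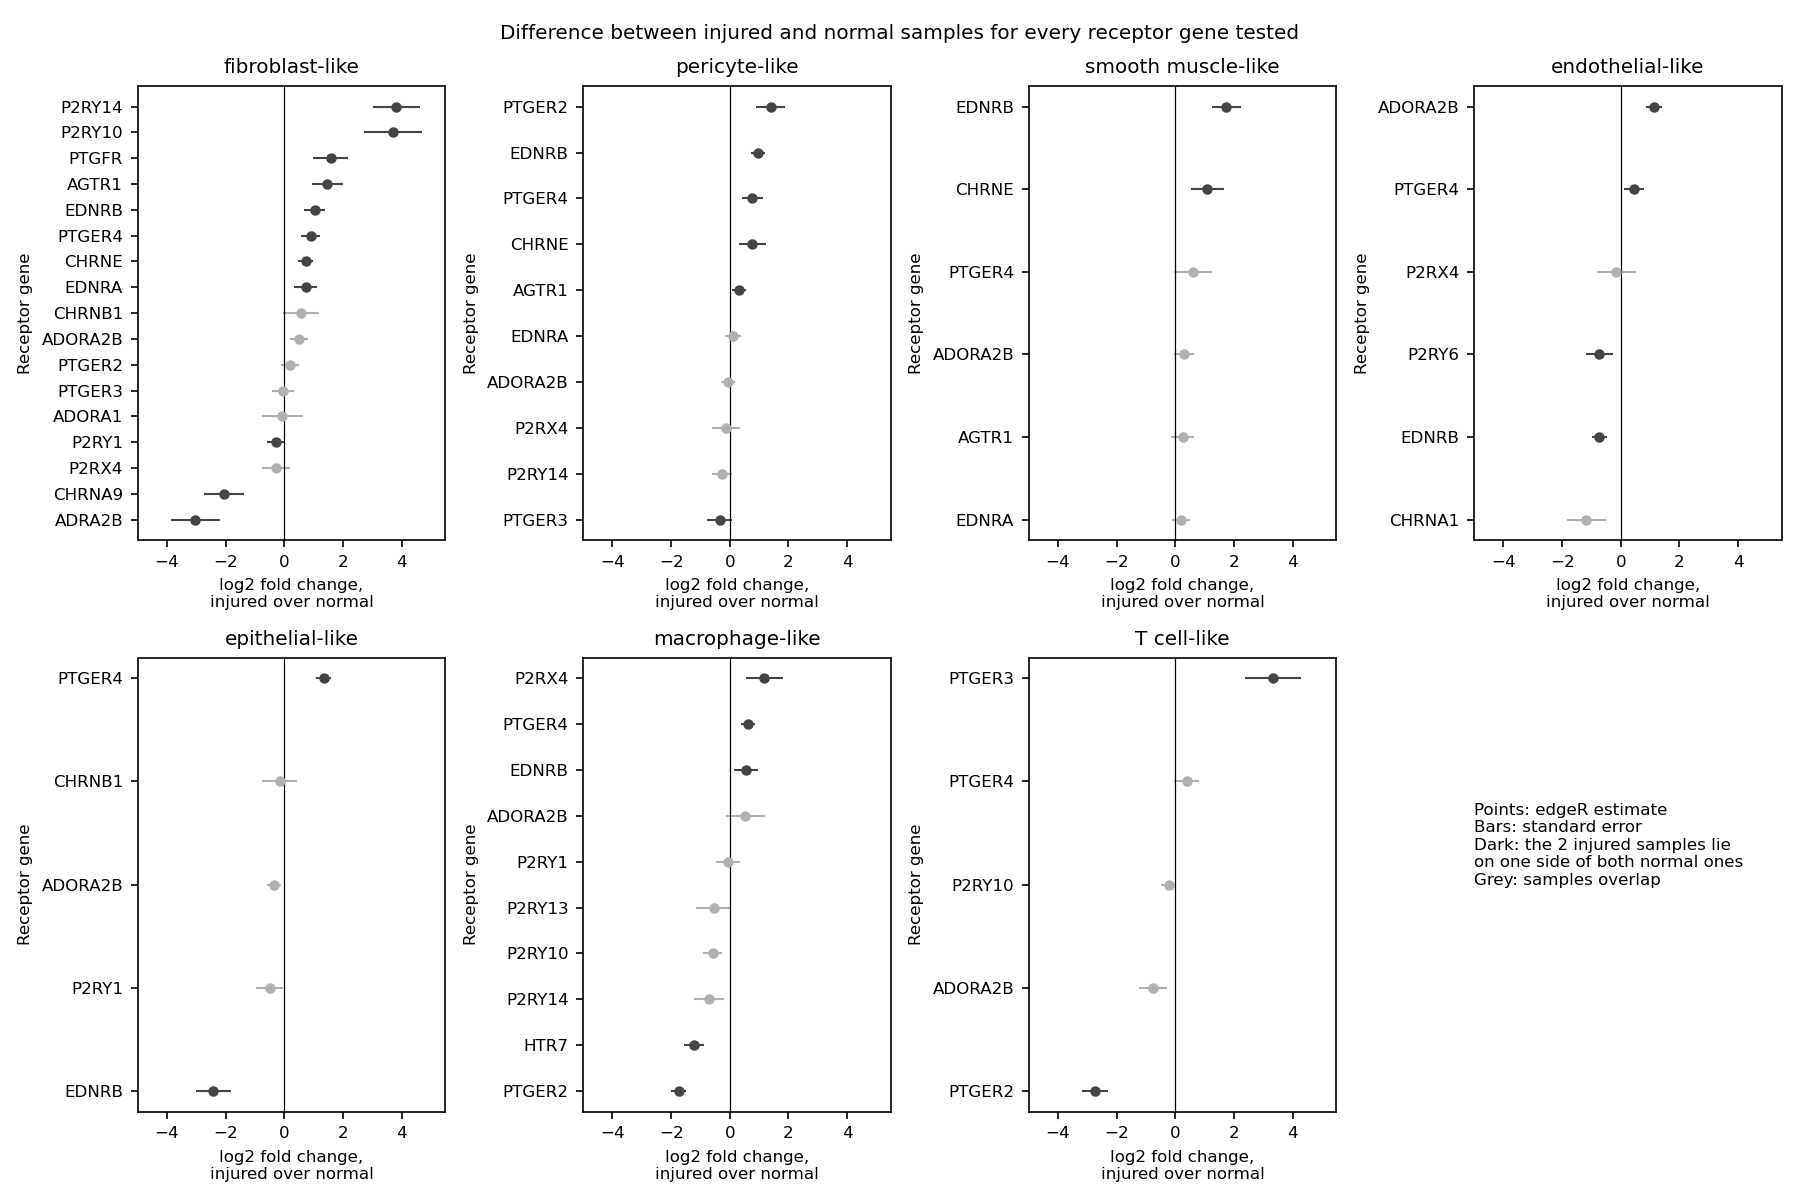
Log2 fold change of injured over normal rabbits for each tested receptor gene, in 7 panels by cell class, as the edgeR estimate with its SE (bars). Dark points mark genes whose groups do not overlap. In fibroblast-like cells 8 of 17 genes lie above and 3 below without overlap, beside 16.2% and 27.8% of all genes. PTGER2 in T cell-like cells is at -2.75.

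Fibroblast-like cells had the most receptor genes to test. Of 17, both injured rabbits were higher for 8 and lower for 3, a share to be read beside 44% of all genes tested whose groups did not overlap (16.2% higher and 27.8% lower). The median log2 fold change of the 17 was 0.57. PTGER4 measured 61.4 and 43.4 CPM in the injured and 38.4 and 23.1 CPM in the normal rabbits (log2 fold change 0.91, SE 0.33, adjusted p = 0.406, edgeR). EDNRB measured 65.3 and 58.3 CPM against 45.4 and 21.3 CPM (log2 fold change 1.04, SE 0.37, adjusted p = 0.398, edgeR), and again the groups did not overlap. AGTR1 did not overlap either, but its log2 fold change of 1.48 (SE 0.54, adjusted p = 0.411, edgeR) went with the high value of Injury_1. Very low genes had the largest estimates. P2RY14 had 17 and 22 UMIs in the injured rabbits and 1 UMI in each normal one (log2 fold change 3.82, SE 0.81, adjusted p = 0.186, edgeR), and P2RY10 had 20 and 12 UMIs against 0 and 2. ADRA2B ran the other way, at 0.0604 and 0.190 CPM against 0.629 and 1.58 CPM (log2 fold change -3.04, SE 0.84, adjusted p = 0.291, edgeR), on 46 UMIs. PTGFR was at 1.59 (SE 0.60, adjusted p = 0.421, edgeR), CHRNA9 at -2.05 (SE 0.69, adjusted p = 0.367) and P2RY1 at -0.28 (SE 0.30, adjusted p = 0.806). The 7 macrophage markers summed to 50.8 and 23.6 CPM in fibroblast-like cells of the injured and 5.82 and 8.93 CPM in those of the normal rabbits, with 4 of the 7 higher in both injured rabbits. All 5 T cell markers were also higher in both, with sums of 14.6 and 6.50 against 2.99 and 1.62 CPM. No marker of either list was at 0, and their part in the P2RY14 and P2RY10 values was not tested.

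EDNRB was higher in mural cells of both injured rabbits. In pericyte-like cells its level was 251 and 217 CPM against 132 and 114 CPM in the normal rabbits (log2 fold change 0.96, SE 0.24, adjusted p = 0.194, edgeR). In smooth muscle-like cells it was 47.0 and 22.0 CPM against 11.2 and 8.75 CPM (log2 fold change 1.74, SE 0.49, adjusted p = 0.838, edgeR). Neither difference passed the test. PTGER2 had 19.5 and 19.4 CPM in injured and 3.40 and 10.1 CPM in normal pericyte-like cells (log2 fold change 1.39, SE 0.49, adjusted p = 0.385, edgeR), and PTGER4 had a log2 fold change of 0.78 (SE 0.37, adjusted p = 0.590). All 8 endothelial markers were lower in pericyte-like cells of both injured rabbits, with sums of 139 and 96.1 against 448 and 706 CPM and none at 0. The 4 lymphatic endothelial markers summed to 710 and 184 against 78.3 and 116 CPM, with 1 of the 4 higher and 1 lower in both injured rabbits and none at 0. The mitochondrial share of UMIs also moved with the groups, with medians of 8.50% and 9.10% in pericyte-like cells of the injured and 11.2% and 11.8% in those of the normal rabbits, and of 9.99% and 10.7% against 12.6% and 13.0% in smooth muscle-like cells. At a mitochondrial limit of 10%, which kept 69.8% and 64.5% of the injured and 29.1% and 26.0% of the normal pericyte-like cells, the EDNRB log2 fold change there was 0.79 (adjusted p = 0.523, edgeR). That limit left 24 and 21 smooth muscle-like cells in the normal rabbits, and EDNRB was not tested in them. The part of these marker lists in the EDNRB values was not tested. PTGER3 was at -0.35 (SE 0.43, adjusted p = 0.877, edgeR) and CHRNE in smooth muscle-like cells at 1.10 (SE 0.58, adjusted p = 0.933). Of 10 genes tested in pericyte-like cells, 5 were higher and 1 lower without overlap, against 19.7% and 20.1% of all genes (39.8% together). Of 6 in smooth muscle-like cells, 2 were higher, against 20.4% of all genes, and none was lower, against 15% (35.4% together). EDNRA and ADORA2B overlapped in both classes.

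In endothelial-like cells ADORA2B measured 22.7 and 27.9 CPM in the injured rabbits and 13.0 and 9.14 CPM in the normal ones, without overlap (log2 fold change 1.13, SE 0.27, adjusted p = 0.553, edgeR). EDNRB was lower without overlap, at 108 and 156 against 239 and 182 CPM (log2 fold change -0.73, SE 0.26, adjusted p = 0.725, edgeR), the opposite side from its mural values. The endothelial-like clusters had unequal shares in the groups. The cluster led by ESM1 and KDR, where EDNRB was high, gave 30.2% and 33.9% of endothelial-like cells in the injured and 38.0% and 54.5% in the normal rabbits, and the cluster led by SELP and SELE, where it was lower, gave 45.1% and 41.4% against 28.8% and 25.6%. Within the ESM1 cluster EDNRB was lower in both injured rabbits too (log2 fold change -0.71, SE 0.25, adjusted p = 0.570, edgeR), as it was within the SELP cluster (log2 fold change -0.48, SE 0.28, adjusted p = 0.973). The cluster led by ENPP3 and CHP2 lay the other way, at 26.7 and 32.4 CPM in the injured and 10.9 and 25.6 CPM in the normal rabbits (log2 fold change 0.66, SE 0.53, adjusted p = 0.979, edgeR). In the cluster led by BMX, NOS3 and HEY1 the groups overlapped. PTGER4 was at 0.45 (SE 0.34, adjusted p = 0.873, edgeR) and P2RY6 at -0.73 (SE 0.46, adjusted p = 0.838). Of the 6 genes tested, 2 were higher and 2 lower without overlap, against 23% and 13.5% of all genes (36.6% together).

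PTGER4 was the epithelial receptor gene nearest to the threshold. Epithelial-like cells had 442 and 302 CPM in the injured and 141 and 106 CPM in the normal rabbits (log2 fold change 1.34, SE 0.26, adjusted p = 0.0714, edgeR), and the groups did not overlap. DESeq2 called it (adjusted p = 6.0e-04). EDNRB was low, at 1.52 and 1.07 against 3.98 and 7.89 CPM (log2 fold change -2.42, SE 0.60, adjusted p = 0.104, edgeR), and 4 of 8 endothelial markers were lower in both injured rabbits, with sums of 56.5 and 71.4 against 35.1 and 106 CPM and none at 0. Their part in the EDNRB value was not tested. ADORA2B overlapped between the groups. Of the 5 genes tested, 1 was higher and 1 lower without overlap, against 39.3% and 15.5% of all genes (54.8% together).

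In immune cells PTGER2 came nearest to the threshold. Macrophage-like cells had 20.3 and 14.9 CPM in the injured and 58.2 and 53.4 CPM in the normal rabbits (log2 fold change -1.74, SE 0.26, adjusted p = 0.102, edgeR). T cell-like cells had 22.2 and 15.8 against 65.0 and 157 CPM (log2 fold change -2.75, SE 0.45, adjusted p = 0.0945, edgeR). DESeq2 called both, with adjusted p-values of 0.0081 and 3.1e-04, and with the replicate number as a block edgeR called the macrophage-like difference (adjusted p = 0.0136). PTGER4 in macrophage-like cells lay on the other side, at 356 and 289 against 232 and 168 CPM (log2 fold change 0.62, SE 0.24, adjusted p = 0.376, edgeR). HTR7 was lower in both injured rabbits (log2 fold change -1.22, SE 0.33, adjusted p = 0.241, edgeR), P2RX4 was at 1.18 (SE 0.64, adjusted p = 0.496) and EDNRB at 0.56 (SE 0.42, adjusted p = 0.619). In T cell-like cells PTGER3 measured 15.7 and 12.3 against 2.83 and 0 CPM (adjusted p = 0.208, edgeR), without overlap. Within the largest T cell-like cluster, led by GZMH and CXCR6, PTGER3 was not tested and its groups were not separate. The T cell-like cluster led by IL1RL1 and TNFRSF9 gave 16.5% and 20.2% of the class in the injured and 5% and 5.51% in the normal rabbits. The part of such shares in the PTGER3 value was not tested. Neutrophil markers summed to 487 and 708 CPM in T cell-like cells of the injured and 22.6 and 35.4 CPM in those of the normal rabbits, with 2 of 4 higher in both and none at 0. Other lists were lower along with PTGER2. The 3 plasma cell markers summed to 83.2 and 92.6 against 495 and 352 CPM (2 of 3 lower, none at 0), and the 5 mast cell markers to 25.2 and 48.7 against 84.8 and 86.6 CPM (1 of 5 lower and 1 higher, CPA3 at 0). The 8 endothelial markers summed to 75.7 and 36.9 against 158 and 72.8 CPM, with 5 of 8 lower in both and none at 0. The part of these lists was not tested. Of 10 genes tested in macrophage-like cells, 3 were higher and 2 lower without overlap, against 28.2% and 16.3% of all genes (44.6% together). Of 5 in T cell-like cells, 1 was higher and 1 lower, against 35.3% and 14.3% (49.6% together).

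Whether a difference between injured and normal rabbits itself differed between classes was tested as an interaction of class and condition against fibroblast-like cells, with the rabbit as a block. Over 55 tests of receptor genes in 4 comparisons edgeR called 1, between pericyte-like and fibroblast-like cells, where 1.71% of all genes were called. The injury difference of P2RY14 was lower in pericyte-like than in fibroblast-like cells by a log2 value of -3.89 (SE 0.79, adjusted p = 0.0236, edgeR). P2RY14 measured 1.03 and 1.04 CPM in fibroblast-like cells of the injured and 0.157 and 0.0427 CPM in those of the normal rabbits. In macrophage-like cells it measured 5.34 and 8.05 against 14.6 and 6.82 CPM. The part of the macrophage markers given above in this call was not tested. For EDNRB, the difference from fibroblast-like cells was -1.87 in endothelial-like (SE 0.35, adjusted p = 0.104, edgeR) and -3.39 in epithelial-like cells (SE 0.76, adjusted p = 0.0783), not past the threshold. Of all genes, 0.137% were called for endothelial-like, 1.48% for epithelial-like and 0.0133% for smooth muscle-like cells.

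The class sums hid opposite patterns among fibroblast-like clusters. The class held 5 clusters, which are called here by leading genes: MFAP5 and ITGBL1, LVRN and INMT, COCH and APOD, EREG and TCF21, and PTPRQ and HHIP. EDNRB was highest in the PTPRQ HHIP cluster in both injured rabbits and in the COCH APOD cluster in both normal ones. ADORA2B was highest in the PTPRQ HHIP cluster in all 4 rabbits, with a mean of 161 CPM, whereas AGTR1 was nearly absent there, at 1.32 to 3.94 CPM, and had means of 55.8 to 76.3 CPM in the MFAP5, LVRN and COCH clusters. PTGFR, too, had its highest mean, 5.62 CPM, in the PTPRQ HHIP cluster, which gave 7.68% and 11.6% of fibroblast-like cells in the injured and 20.7% and 30.4% in the normal rabbits. A class sum reflects both the level within clusters and these shares. Fits within single clusters were chosen after the data had been seen.

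In the COCH APOD cluster 2 receptor genes passed the test, in opposite directions. ADORA2B measured 59.1 and 49.6 CPM in the injured and 4.72 and 6.80 CPM in the normal rabbits and rose by a log2 fold change of 3.15 (SE 0.36, adjusted p = 0.0107, edgeR). EDNRB measured 11.0 and 5.37 CPM against 84.9 and 47.6 CPM and fell, with a log2 fold change of -3.01 (SE 0.43, adjusted p = 0.023, edgeR). In both, the injured and normal values were far apart with no overlap. These were the only calls in 94 tests of receptor genes over 15 single clusters, each fit adjusted over its own genes, and 2% of all genes were called in the COCH APOD cluster. Elsewhere the share of all genes called was 0.116% in the MFAP5 ITGBL1 cluster, 0.0298% in the EREG TCF21 cluster, 0% in the LVRN INMT cluster, 0.144% and 0.187% in the 2 macrophage-like clusters, 1.9% in the epithelial-like and 0.068% in the pericyte-like cluster, and 0% in the others apart from the PTPRQ HHIP cluster given next. Both calls held in edgeR with other size factors, no filter or a block, and in DESeq2. Without each rabbit in turn the log2 fold changes were 2.91 to 3.57 for ADORA2B and -3.58 to -2.58 for EDNRB. All of these fits used the same cells. The cluster was not refitted without integration, without doublets, at another resolution or at the stricter mitochondrial limit. Without integration COCH and APOD were leading genes of different clusters, so the calls are bound to this grouping of cells. The 8 endothelial markers summed to 32.3 and 24.6 CPM in this cluster of the injured and 29.2 and 59.5 CPM in that of the normal rabbits, and the leading genes of the PTPRQ HHIP cluster to 63.9, 94.6, 55.6 and 79.9 CPM in Injury_1, Injury_2, Normal_1 and Normal_2, against 2798 to 4767 CPM in that cluster itself. The 4 pericyte markers summed to 10.7, 8.44, 7.54 and 39.1 CPM. Other lists lay on the same side as ADORA2B in this cluster. The 5 smooth muscle markers summed to 1161 and 1606 CPM in the injured and 252 and 408 CPM in the normal rabbits, with 3 of the 5 higher in both injured rabbits and none at 0. The 7 macrophage markers summed to 36.4 and 50.9 against 4.72 and 15.9 CPM (4 of 7 higher, none at 0) and the 5 T cell markers to 14.97 and 8.95 against 0 and 2.27 CPM (5 of 5 higher). Their part in the ADORA2B value was not tested.

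EDNRB lay the other way in the PTPRQ HHIP cluster, at 574 and 280 CPM in the injured and 37.4 and 41.8 CPM in the normal rabbits (log2 fold change 3.34, SE 0.43, adjusted p = 0.0546, edgeR). The value missed the threshold, where 0.171% of all genes passed. The EREG TCF21 cluster had 104 and 128 against 36.2 and 11.8 CPM (log2 fold change 2.45, SE 0.55, adjusted p = 0.221, edgeR). ADORA2B in the PTPRQ HHIP cluster was 235 and 202 against 144 and 61.9 CPM. AGTR1 was highest in Injury_1 in each of the other 4 clusters, for instance 169 CPM in the LVRN INMT cluster against 48.1, 41.1 and 46.9 CPM in Injury_2, Normal_1 and Normal_2. In the EREG TCF21 cluster Injury_2 also lay clearly above the normal rabbits, with 83.7 and 20.9 against 10.8 and 6.67 CPM (log2 fold change 2.74, SE 0.73, adjusted p = 0.307, edgeR). Both injured rabbits were above both normal ones in 2 of the 5 clusters. No test was made of differences between clusters.

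**Figure D4:**
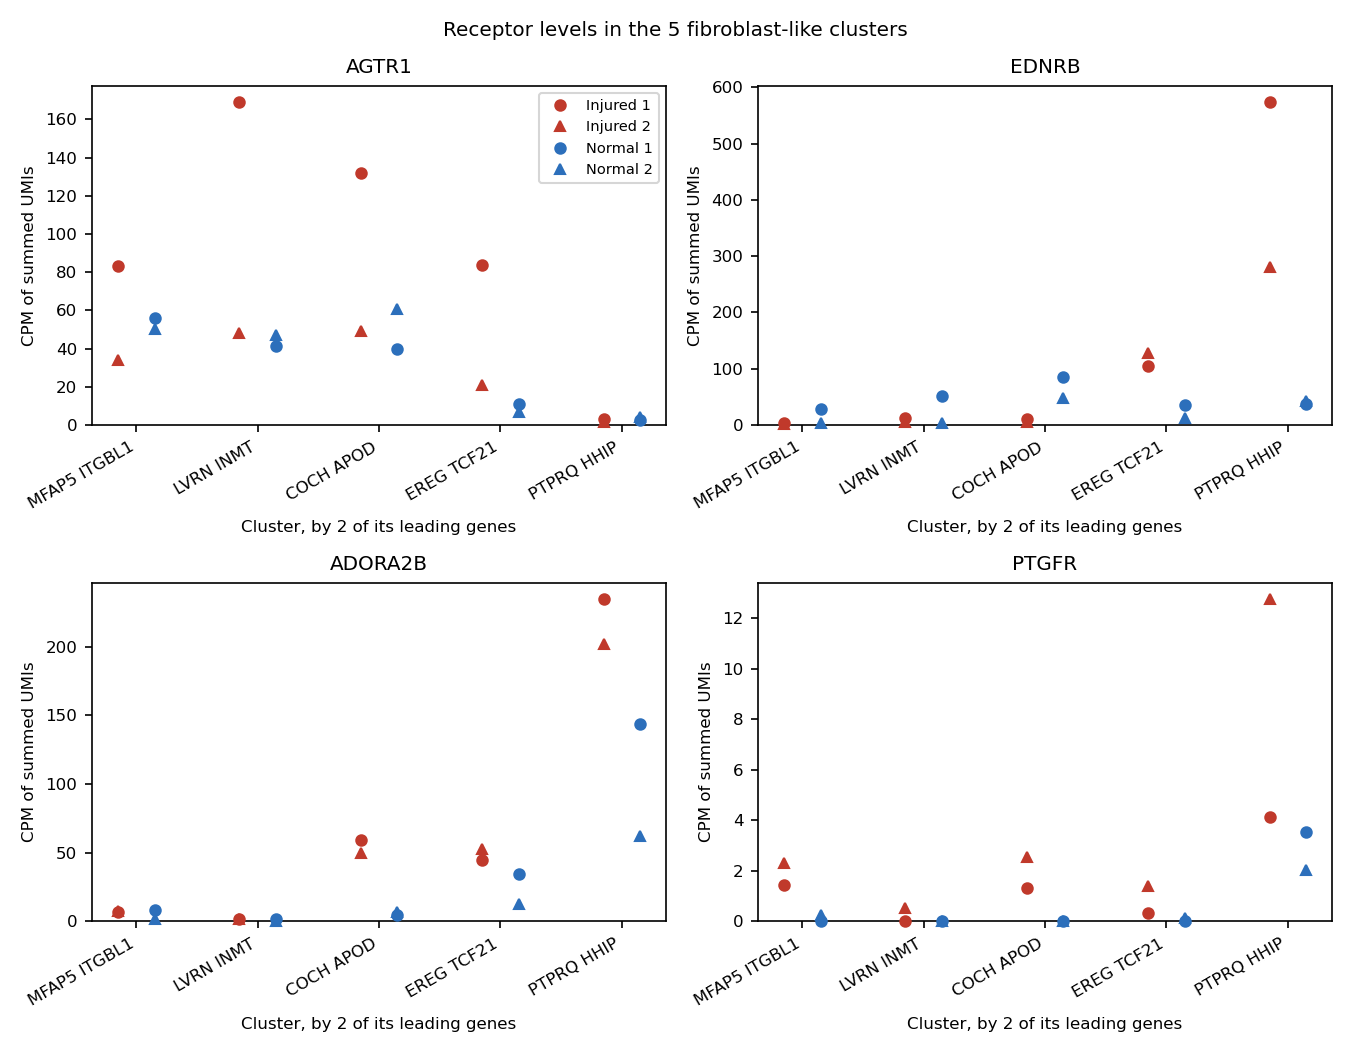
Level (CPM, axes from 0) of AGTR1, EDNRB, ADORA2B and PTGFR in the 5 fibroblast-like clusters, named by leading genes, with 1 point per rabbit (red for injured, blue for normal, circle for replicate 1 and triangle for replicate 2). EDNRB is higher in the injured rabbits in the PTPRQ HHIP cluster (574 and 280 against 37.4 and 41.8 CPM) and lower in the COCH APOD cluster (11.0 and 5.37 against 84.9 and 47.6 CPM).

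Vascular clusters also differed in their receptors. EDNRB measured 195, 204, 380 and 238 CPM in Injury_1, Injury_2, Normal_1 and Normal_2 in the endothelial-like cluster led by ESM1 and KDR, and 259, 368, 482 and 238 CPM in the cluster led by BMX, NOS3 and HEY1. It averaged 88.2 CPM in the cluster led by SELP and SELE and 23.9 CPM in that led by ENPP3 and CHP2. Both injured rabbits were above both normal ones for ADORA2B in each of the 4 clusters, for instance 49.6 and 53.1 against 17.9 and 9.61 CPM in the ESM1 cluster (log2 fold change 1.84, SE 0.33, adjusted p = 0.416, edgeR). It was tested in 3 of the 4, all but the ENPP3 cluster, and passed in none of them. In smooth muscle, EDNRA and ADORA2B had means of 86.9 and 151 CPM in the cluster led by RERGL and MYH11, of 639 cells. Their UMIs there were 52 to 83 and 78 to 139 per rabbit. The small cluster led by ACTG2 and DES, of 123 cells, had 15 UMIs of EDNRA and 16 of ADORA2B over all rabbits. These UMI counts are not scaled to the depth of the clusters.

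Macrophage-like cells fell into 2 clusters with different receptors. The cluster led by C1QA and MRC1 had PTGER4 at 429, 400, 448 and 294 CPM in Injury_1, Injury_2, Normal_1 and Normal_2 but PTGER2 at no more than 4.50 CPM. The cluster led by CD74 and DNASE1L3 had PTGER2 at 74.8, 41.1, 101 and 123 CPM, P2RY10 at 118 to 156 CPM and HTR7 at 28.4 to 44.8 CPM, with less PTGER4 in each rabbit. Within it, PTGER2 was lower in both injured rabbits (log2 fold change -1.11, SE 0.31, adjusted p = 0.223, edgeR). HTR7 was lower in both too. The CD74 cluster gave 21.6% and 32.3% of macrophage-like cells in the injured and 46.2% and 32.8% in the normal rabbits. PTGER4 overlapped between the groups in the C1QA cluster, while in the CD74 cluster it was 104 and 78.0 CPM in the injured and 61.4 and 5.23 CPM in the normal rabbits, without overlap (log2 fold change 1.28, SE 0.64, adjusted p = 0.472, edgeR). In the largest T cell-like cluster, led by GZMH and CXCR6, PTGER2 measured 19.3 and 7.24 against 58.6 and 172 CPM (log2 fold change -3.11, adjusted p = 0.257, edgeR), while P2RY10 was 229 to 338 CPM in all 4 rabbits. In that cluster the plasma cell markers summed to 11.6 CPM in Injury_1 and to 0 in the other rabbits, and the mast cell markers to 24.7 and 40.5 against 54.1 and 83.2 CPM.

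**Figure D5:**
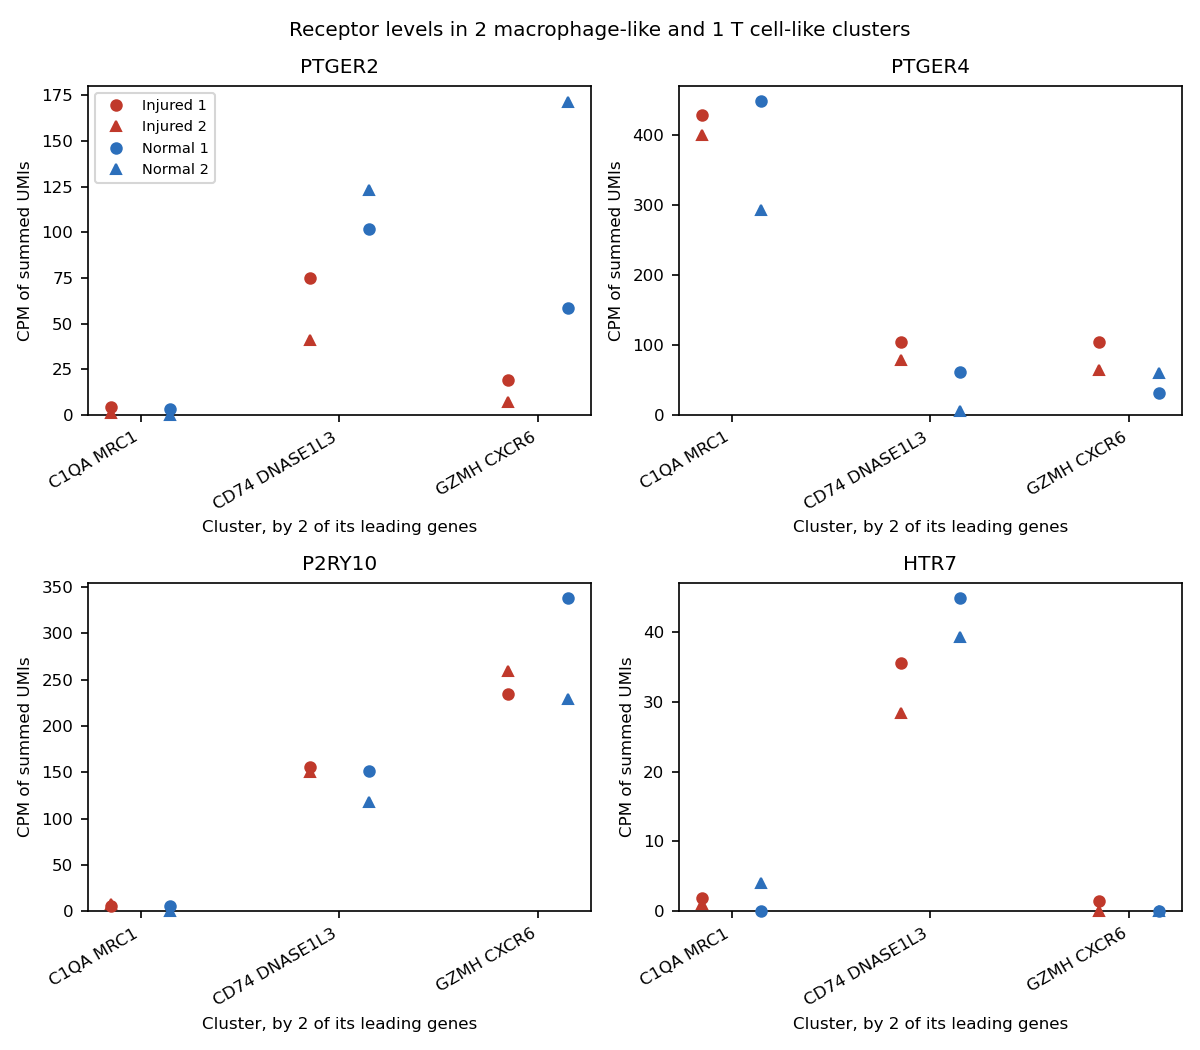
Level (CPM, axes from 0) of PTGER2, PTGER4, P2RY10 and HTR7 in the macrophage-like clusters led by C1QA and by CD74 and in the T cell-like cluster led by GZMH, with 1 point per rabbit (red for injured, blue for normal, circle for replicate 1 and triangle for replicate 2). PTGER2 is at no more than 4.50 CPM in the C1QA cluster and at 41.1 to 123 CPM in the CD74 cluster.

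Genes that make, remove or relay the ligands were read from the same fits, from 7 lists. In injured epithelial-like cells 2 of them fell, and no other listed gene passed the test in any class. PLA2G4A, the phospholipase that frees arachidonic acid for prostanoid synthesis, measured 3.17 and 3.56 CPM in the injured and 33.6 and 17.4 CPM in the normal rabbits (log2 fold change -3.14, SE 0.39, adjusted p = 0.0304, edgeR). ALPL, an alkaline phosphatase that can break down nucleotides, measured 12.8 and 16.0 against 56.3 and 51.6 CPM (log2 fold change -2.15, SE 0.28, adjusted p = 0.0359, edgeR). They were 1 of 7 prostanoid genes and 1 of 5 purine genes tested in that class, where 1.65% of all genes passed. PTGS2, the inducible cyclooxygenase, was very abundant in fibroblast-like cells, at 6442 ± 1880 CPM (SD, n = 4), and its groups overlapped. On the endothelin side, EDN1 was an endothelial-like transcript at 172, 175, 203 and 72.4 CPM in Injury_1, Injury_2, Normal_1 and Normal_2, and ECE1, the enzyme that activates endothelin, averaged 57.7 ± 10.9 CPM (SD, n = 4) in the same cells. ENTPD1, which degrades extracellular ATP, measured 15.5 and 19.1 against 72.0 and 71.4 CPM in fibroblast-like cells (log2 fold change -1.94, SE 0.24, adjusted p = 0.126, edgeR), and NT5E, which makes adenosine, averaged 137 ± 76.0 CPM there. ACE, which makes angiotensin II, averaged 54.3 ± 22.9 CPM (SD, n = 4) in endothelial-like cells. In pericyte-like cells ACE was lower in the injured rabbits without passing the threshold (log2 fold change -5.79, SE 0.76, adjusted p = 0.0618, edgeR). Endothelial markers were lower there too, as given above, and their part in the ACE value was not tested. For acetylcholine, CHAT had 5 UMIs in all, and the cholinesterase BCHE averaged 581 ± 70.2 CPM (SD, n = 3) in glial-like cells. MAOB, which degrades monoamines, averaged 163 ± 114 CPM (SD, n = 4) in fibroblast-like cells, and HDC, which makes histamine, 5819 ± 4564 CPM (SD, n = 2) in mast cell-like cells. Of the signalling genes, RGS4 and RGS5, which shorten G protein signals, averaged 3098 ± 562 and 1470 ± 303 CPM (SD, n = 4) in pericyte-like cells. GNAI2 averaged 518 ± 71.7 CPM in endothelial-like cells. RGS5 and HDC were among the markers that named the pericyte-like and mast cell-like classes, so high levels there follow from the naming.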

How the data were processed

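Single-cell RNA was measured in 4 rabbits, 2 injured and 2 normal. The authors deposited UMI counts per gene and barcode, whole numbers without normalization, made with Cell Ranger 6.0.1 per the file headers. The genome release used for counting was not given in the sources used here. No annotation of cells by the authors was used, so a difference from the study's classes may come from rebuilt names. KRT20 and 1 of the 51 receptor genes are not reported here.

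Kept barcodes had 500 UMIs and 200 genes or more, with no more than 15% of UMIs from 13 mitochondrial protein genes: 6081, 5529, 4308 and 6027 cells with 44542420, 43681328, 24798544 and 44363435 UMIs in Injury_1, Injury_2, Normal_1 and Normal_2. As in the study's methods, counts were log-normalized to 10000 UMIs per cell, aligned across libraries by canonical correlation analysis and grouped by Louvain clustering (resolution 0.8, 30 principal components) in Seurat 5.3.0 (R 4.3.3). Of 2000 variable genes the 14 that were receptor genes were left out. The 29 clusters were named by fixed markers with at least 3 raised, and 4 stayed unnamed. How markers were scored was settled after the data had been seen. Doublets were scored with Scrublet (scanpy 1.11.5, Python 3.11.15) and removed only in an alternative.

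UMI counts were summed per rabbit and class (at least 20 cells in each rabbit, 7 classes) and compared in edgeR 4.0.16 by quasi-likelihood F-tests, using filterByExpr and TMM factors, with Benjamini-Hochberg adjustment over all genes of the fit and a threshold of 0.05. SE is that of the fitted log2 fold change. DESeq2 1.42.0 was an alternative. Exact permutation of 2 against 2 samples cannot go below 0.333 and was not used. Shares of cells with a UMI are expectations after thinning each cell to 1000 UMIs. Fits were tested on simulated data with 200 changed genes, and false calls numbered 2 to 24 per class fit. They were 22 of 103 calls in the fibroblast-like and 24 of 111 in the macrophage-like fit, a share above the threshold of 0.05. In the other class fits 2 to 6 calls were false, of 43 to 96. A floor of 3 counts stands for a count of 0 and covers counting error only.

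The receptor genes, the marker lists, the lists of linked genes and the tests were chosen with earlier results of these data known. Genes are named where past the threshold, where among the 4 of their family with the most UMIs (at least 20), where among the 3 largest differences in each direction without overlap in a class, or where they had 0 UMIs. Linked genes are named where past the threshold or among the 3 with the most UMIs. Other genes were chosen after their values had been seen: the receptor genes under 20 UMIs, the cluster levels, and several linked genes. Overlapping genes were looked up in RefSeq (assembly mOryCun1.1), where 25 of 26 symbols matched and 11 overlapped another gene. No sequences were printed.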

Additional observations from a re-analysis of the deposited data

Results flagged for a closer look

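The injury difference of P2RY14 was lower in pericyte-like than in fibroblast-like cells by a log2 value of -3.89 (adjusted p = 0.0236, edgeR interaction term). It stands out because the difference between injured and normal rabbits itself differed between the classes. P2RY14 overlapped in pericyte-like cells and had 17 and 22 UMIs in the injured against 1 and 1 in the normal rabbits in fibroblast-like cells. Macrophage and T cell markers moved with the fibroblast-like value, as given in the text above, and their part was not tested.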

How the results depend on the processing

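Against 0 of 59 receptor tests called by edgeR, DESeq2 called 3, a fit without the filter on low counts 12 (of 194 tests), the replicate block 1, and fits without single rabbits 1 to 8, while 0 were called with RLE factors, clustering resolution 0.3, a mitochondrial limit of 10%, no integration or removal of the top 5% of doublet scores. Single clusters, added after the data had been seen, gave 2 (of 94). The class fits over all genes held 44347 tests in the main setting, and DESeq2 was given the same genes. Over all genes, 124 calls became 1060 with DESeq2, 2690 without the filter, 300 with the block, 57 at the mitochondrial limit of 10%, 192 without doublets and 318 to 2019 without single rabbits, where leaving out Normal_1 gave 1542 and leaving out Normal_2 gave 2019. Receptor genes whose injury difference differed between classes numbered 1, and 4 without the filter. The genes with the same highest class in all 4 rabbits numbered 10, and 6 at the mitochondrial limit of 10%. The numbers 1 and 2 of the rabbits share no litter or day in the labels, and the correlation of same-numbered deviations over the classes was -0.0271 to 0.188 with only 2 pairs, so the block is a sensitivity check: its 1 call was PTGER2 in macrophage-like cells. PTGER2 passed in 6 of 12 settings in T cell-like and 6 of 12 in macrophage-like cells, PTGER4 in 4 of 12 in epithelial-like cells and EDNRB in 3 of 12 in pericyte-like cells. Of 283 log2 fold changes under alternatives, 254 kept direction and side of the threshold, 29 kept direction and passed it, and 0 changed sign. These covered only the largest differences without overlap in each class, so their choice favoured a kept sign. Tests whose groups overlapped were not among them. In single clusters, EDNRB of the PTPRQ HHIP cluster passed in the DESeq2, unfiltered, blocked and leave-one-out fits, and ADORA2B there without Normal_1. Unthinned shares are given beside the thinned ones. Depth limits the low genes: 24 of the 50 had under 20 UMIs in all cells.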
